A study of Mus musculus with 24 samples.

Results

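NK cells from mice examined 2 days after injection of the RMA tumor were compared with NK cells from mice without a tumor. The comparison used raw read counts of 7 of the 24 libraries in the series, chosen by their titles: the 3 RMA libraries of the early time point (RMA early 1 to 3) and the 4 control libraries (control 1 to 4). All 7 came from female wild-type C57BL/6J mice aged 7 to 9 weeks. Control mice were untreated and carried no tumor, and RMA early mice had received RMA cells into a vein. RMA is a T lymphoma line of the C57BL/6 background and, in the study, does not directly stimulate NK cells. For comparison, the 3 RMA-KR early libraries came from mice injected on the same schedule with RMA-KR, a derivative of RMA that lacks B2m and carries the NKG2D ligand Rae1-beta, and the 3 RMA intermediate libraries came from RMA mice at day 4. NK cells were sorted from the spleen as cells positive for NKp46 or NK1.1 that lacked surface markers of T and B cells. The labels do not say whether a library held the cells of 1 mouse or of several.

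NK cells are innate lymphocytes that kill target cells by releasing perforin and granzymes, and they secrete interferon-gamma and chemokines. Their activity follows from the balance between activating receptors and inhibitory receptors, many of which bind MHC class I on the target. Type I interferons and interleukin-15 prime resting NK cells: interferons induce a set of antiviral and signalling genes, and interleukin-15 supports survival, metabolism and entry into the cell cycle.

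Library totals ran from 5138651 (control 1) to 10562991 (control 4) counts in the controls and from 7203171 (RMA early 1) to 9551915 (RMA early 2) in the RMA early group. Counts were scaled to counts-per-million (CPM) values with TMM factors, and 3 counts in a library, the level below which a value is little more than 0, corresponded to 0.268 to 0.554 CPM. At least 1 count was found for 23111, 19370, 19446 and 27820 genes in controls 1 to 4 and for 17602, 15389 and 22210 genes in RMA early 1 to 3. RMA early 2 therefore had the fewest detected genes of the 7, although its total was not the lowest.

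RMA early 1 and RMA early 2 stood apart in a second way. Of 6807 abundant genes, those with a control mean of at least 20 CPM and a count in each control, 11 were at 0 in RMA early 1, 59 were at 0 in RMA early 2 and 0 were at 0 in RMA early 3. Not a single gene was at 0 in both, but some at 0 in 1 of them were near 0 in the other. Cluh stood at 0.4 and 0 CPM in RMA early 1 and 2, and Coil, described below, at 0 and 1.86 CPM. Gatd1, for example, stood at 74.5, 93.3, 51.4 and 82.2 CPM in controls 1 to 4 and at 75.4, 0 and 80.6 CPM in RMA early 1 to 3. Its level in RMA early 1 and 3 lay within the controls, so that the gap was a property of RMA early 2. Across genes, which are not independent replicates, Pearson's r between log2 CPM of library pairs was 0.913 to 0.939 among the controls and 0.81 to 0.853 among the RMA early libraries. A value low in RMA early 1 or 2 alone is thus weak ground for a difference. Single genes are therefore described as differing only where all 3 RMA early libraries lay on the same side of all 4 controls. Other genes below were named whatever their values, and many of them overlapped with the controls.

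**Figure D1:**
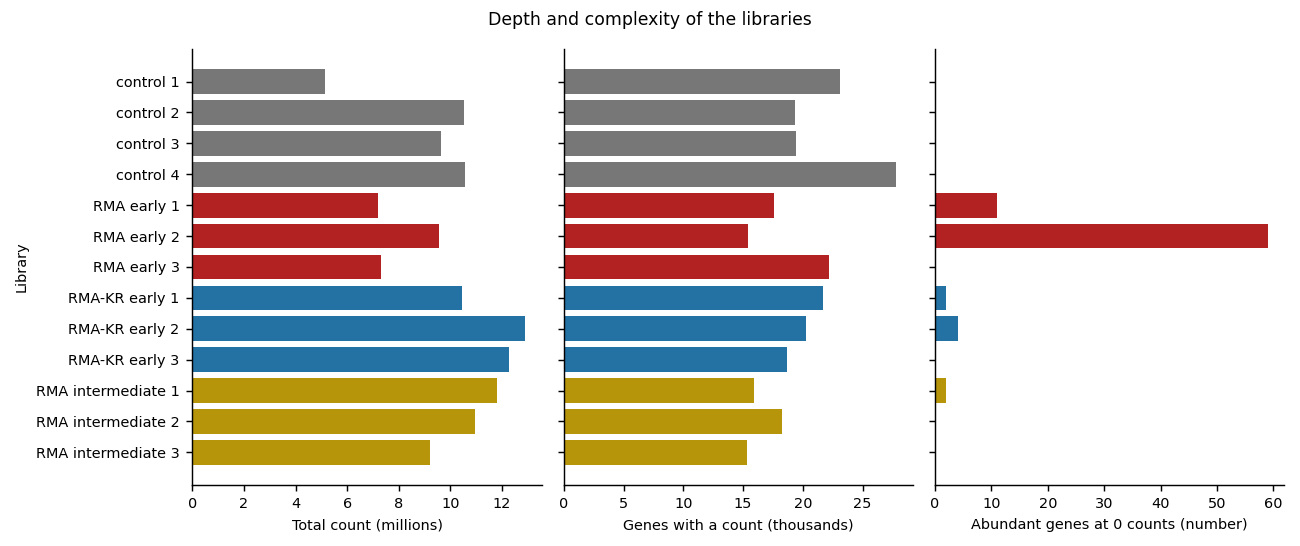
Total count, number of genes with a count and number of abundant genes at 0 counts (horizontal axes), as bars for each of 13 libraries, with the groups in separate colours. Of the 7 libraries compared, RMA early 2 has the fewest genes with a count (15389) and the most abundant genes at 0 (59 of 6807), RMA early 1 has 11 and RMA early 3 has 0.

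Against the controls, the day 2 RMA cells differed by no gene that passed the test. Of 17097 genes tested with edgeR (quasi-likelihood test, Benjamini-Hochberg adjustment over all genes tested), 0 (0%) had an adjusted p under 0.05 with a fold change above 2, while 1204 genes had an unadjusted p under 0.05, 410 of them higher (2.4% of genes tested) and 794 lower (4.64%). DESeq2 called 62 genes with its default settings and 19 with a prior on the fold change, and edgeR without a filter on low counts called 88. In edgeR the count also depended on RMA early 3: without that library 86 genes passed, 7 higher and 79 lower, and without RMA early 1 and RMA early 2 together 0 passed. The p-values measure only the spread between libraries, taken over all 24 in the fit, since neither the labels nor the methods say that each RMA early library came from a separate animal.

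Genes whose values did not overlap between the groups were counted without a test. In 362 genes (2.12%) all 3 lay above all 4 controls, and in 844 genes (4.94%) all 3 lay below. Of these, 156 higher and 516 lower genes also had a fold change above 2, and 132 higher and 411 lower genes had an unadjusted p under 0.05. By mean level over the 7 libraries, 24 higher and 152 lower genes were under 1 CPM, 143 and 256 were at 20 to 100 CPM, and 70 and 108 were over 100 CPM. With DESeq2 size factors 459 genes lay higher and 704 lower, a smaller excess of lower genes. With at least 10 counts in each of the 7 libraries 319 lay higher and 362 lower, but that filter removes genes for being low in a group and so says nothing of the excess. The counts grew when a library was left out, since fewer values then have to lie on one side. Without RMA early 1, 2 or 3 the higher genes numbered 1190, 1271 and 1249 and the lower genes 1577, 1473 and 2268, and without control 1 or control 3 the higher genes numbered 658 and 596.

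**Figure D2:**
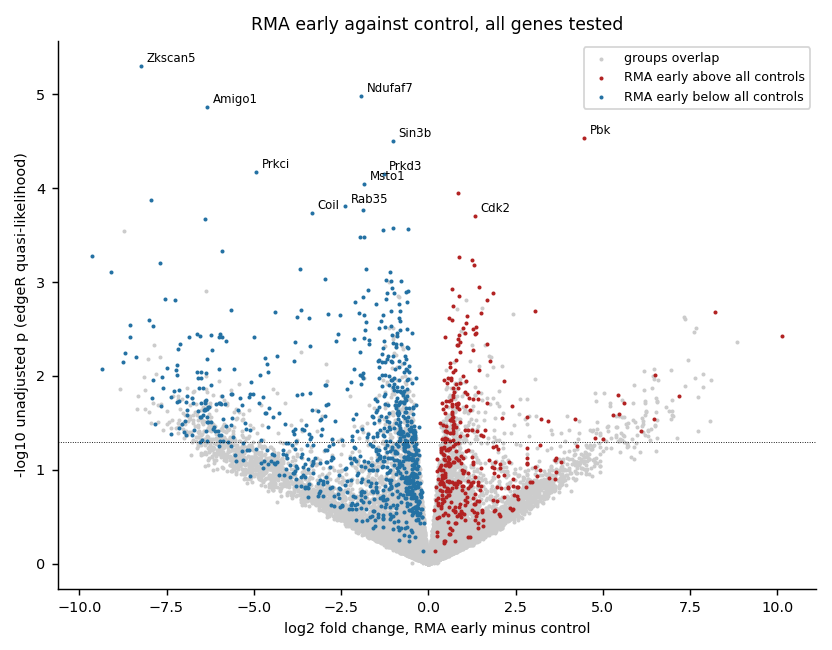
Log2 fold change of RMA early over control (horizontal axis) against the unadjusted p-value on a -log10 scale (vertical axis), with a point per gene tested (17097), coloured where the 3 RMA early values lie above or below all 4 controls, and a dotted line at p 0.05. Of these genes, 0 had an adjusted p under 0.05 with a fold change above 2, and the smallest adjusted p was 0.0769.

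Among genes above the controls in all 3 libraries with a fold change above 2, the 10 with the lowest unadjusted p were Pbk, Cdk2, Golim4, Mad2l1, Gsdme, Fbxw17, Serpine2, Spag5, Tmem50b and Cul3. Of these, 0 passed the test. Pbk, a kinase made by mitotic cells, stood at 0.739, 0, 1.79 and 0.0893 CPM in controls 1 to 4 and at 4.8, 16.9 and 21.2 CPM in RMA early 1 to 3. It was close to undetected in the controls and clearly counted in each RMA early library (log2 fold change 4.47 ± 0.86 SE, edgeR adjusted p = 0.106, higher in 3 of 3). Cdk2, the cyclin-dependent kinase that drives entry into S phase, stood at 23.8, 23, 25.9 and 31.1 CPM in controls 1 to 4 and at 73.5, 82.7 and 41.2 CPM in RMA early 1 to 3. Its controls lay close together and the lowest RMA early value lay above the highest control (1.34 ± 0.3, adjusted p = 0.238). Spag5, a mitotic spindle protein, stood at 1.66, 1.54, 4 and 8.57 CPM in controls 1 to 4 and at 19.3, 49.2 and 32.9 CPM in RMA early 1 to 3, without overlap (3.07 ± 0.88). Mad2l1, a spindle checkpoint protein, stood at 21.8, 19.5, 20.6 and 22.3 CPM in controls 1 to 4 and at 22.7, 50.8 and 83 CPM in RMA early 1 to 3. Here RMA early 1 lay just above the controls, and the difference came from the other 2 libraries.

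Of the remaining genes of this group, Serpine2, a secreted inhibitor of serine proteases, stood at 9.24, 13.6, 7.48 and 1.7 CPM in controls 1 to 4 and at 15.5, 34.2 and 26.3 CPM in RMA early 1 to 3, so that RMA early 1 lay close above control 2. Gsdme, a gasdermin whose fragment forms pores in the cell membrane, stood at 30.1, 13.6, 15.6 and 19.2 CPM in controls 1 to 4 and at 38.2, 85.8 and 37.4 CPM in RMA early 1 to 3. RMA early 2 held the high value and the other 2 lay nearer to control 1. Log2 fold changes of the other 4 were 1.25 for Golim4, 1.86 for Fbxw17, 1.5 for Tmem50b and 1.11 for Cul3, the scaffold of a ubiquitin ligase family.

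The 10 genes below the controls, chosen in the same way, were Zkscan5, Ndufaf7, Amigo1, Sin3b, Prkci, Prkd3, Msto1, Rab35, Cd151 and Coil, and again 0 passed. Ndufaf7, an assembly factor of mitochondrial complex I, stood at 45.3, 41, 52 and 43.4 CPM in controls 1 to 4 and at 13.1, 14.7 and 8.2 CPM in RMA early 1 to 3. All 3 RMA early values lay well below the narrow range of the controls (log2 fold change -1.92 ± 0.34 SE, edgeR adjusted p = 0.0769, lower in 3 of 3). Prkd3, a protein kinase D, lies beside Ndufaf7 on chromosome 17, with 1352 bases between the 2 genes. It stood at 165, 114, 102 and 188 CPM in controls 1 to 4 and at 65.8, 35.8 and 73.9 CPM in RMA early 1 to 3, also without overlap (-1.28 ± 0.27, adjusted p = 0.171). Sin3b, a scaffold of histone deacetylase complexes, stood at 201, 205, 150.4 and 199.8 CPM in controls 1 to 4 and at 66.6, 92.6 and 120.3 CPM in RMA early 1 to 3. The highest RMA early value lay below control 3, the lowest control (-1.02 ± 0.2, adjusted p = 0.106).

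Zkscan5, Amigo1 and Prkci were at the edge of detection at day 2. Zkscan5, a zinc finger protein, stood at 15.5, 12.1, 18.1 and 17.6 CPM in controls 1 to 4, and RMA early 1 to 3 had 0, 0 and 1 counts. Summed over libraries, 578 counts in the controls stood against 1 in RMA early, a ratio of 392 after scaling, with a 95% counting interval of 70.1 to 15500. Amigo1, an adhesion protein, stood at 24.8, 15.7, 7.06 and 9.91 CPM in controls 1 to 4, and RMA early 1 to 3 had 3, 1 and 0 counts (475 counts against 4, ratio 80.6, interval 31.3 to 297). Prkci, an atypical protein kinase C of the cell polarity complex, stood at 12.2, 3.09, 12.2 and 13.4 CPM in controls 1 to 4, and RMA early 1 to 3 had 2, 3 and 3 counts (364 against 8, ratio 30.9, interval 15.5 to 72.1). These intervals cover counting error only. All 3 genes were thus near 0 in each RMA early library, RMA early 3 included.

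Rab35, a small GTPase of endosome recycling, stood at 13.3, 12.2, 8.01 and 11 CPM in controls 1 to 4 and at 2, 1.86 and 2.51 CPM in RMA early 1 to 3. Cd151, a tetraspanin bound to integrins, stood at 40.5, 39.4, 28.7 and 52.5 CPM in controls 1 to 4 and at 6.8, 12.5 and 13.6 CPM in RMA early 1 to 3. Coil, the scaffold of Cajal bodies in the nucleus, stood at 21.3, 27.8, 19.6 and 25.9 CPM in controls 1 to 4 and at 0, 1.86 and 5.16 CPM in RMA early 1 to 3. In each of the 3 genes the highest RMA early value was below the lowest control, and the 3 RMA early values of Rab35 were the closest to one another. DESeq2 with default settings called 9 of these 10 lower genes, all except Sin3b, and 7 of the 10 higher genes. edgeR without RMA early 3 called 5 of the lower (Zkscan5, Amigo1, Sin3b, Prkd3 and Coil) and 3 of the higher (Pbk, Cdk2 and Golim4).

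**Figure D3:**
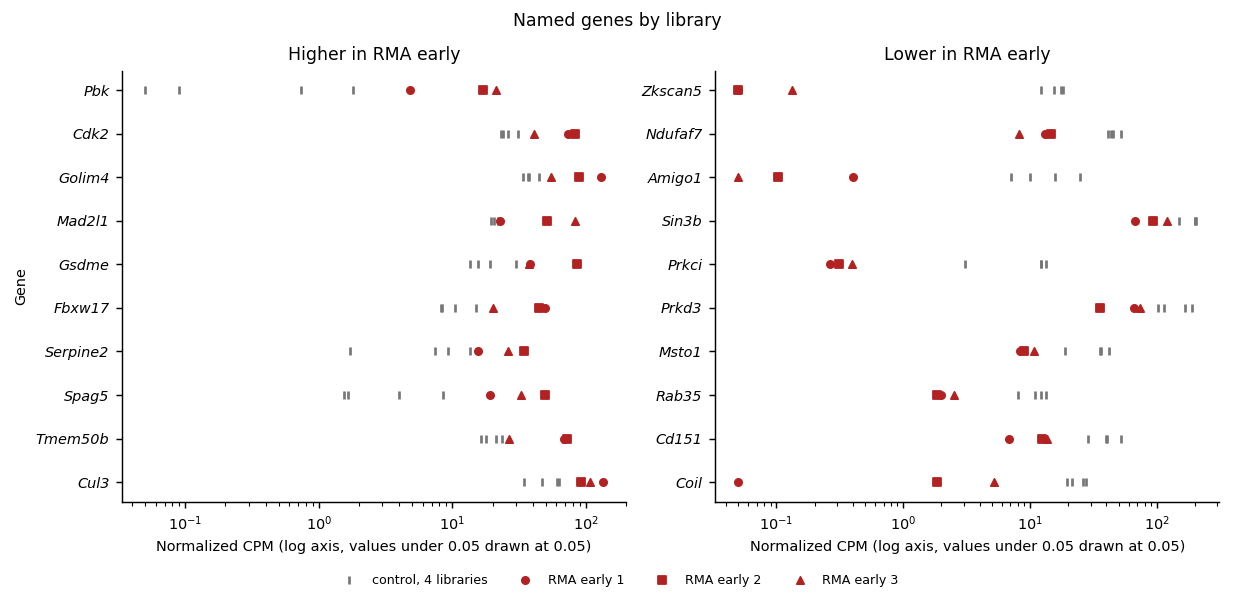
Normalized CPM (log scale) of the 10 higher and the 10 lower genes in the 4 control libraries (grey bars) and in RMA early 1 to 3 (red symbols), with values under 0.05 drawn at 0.05. For each gene the RMA early symbols lie on one side of the control bars, which the choice of genes required.

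At the level of pathways, most gene groups had a median close to 0. In 31 lists of pathway and NK cell genes, with 875 members tested, the median log2 fold change lay within 0.25 of 0 in 29 lists, against -0.06 over all genes tested, and in each list 0 members passed the edgeR test as reported. Other settings called some members: DESeq2 with default settings called Pbk and Egr2 among others, and edgeR without a filter called Pbk, Cdc6, Il7r, Egr2 and Havcr2 among others, most of them S phase and mitosis genes. Shares of members without overlap, given below, stand against 2.12% higher and 4.94% lower over all genes tested. The 2 lists with a median beyond 0.25 were genes of DNA replication and genes of mitosis.

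Of 35 S phase genes, such as the MCM helicase subunits and the enzymes of nucleotide supply, 32 had a fold change above 0, with a median log2 fold change of 0.72. Their summed level was 1956, 2044, 2131 and 1791 CPM in controls 1 to 4 and 1786, 3713 and 3168 CPM in RMA early 1 to 3. RMA early 2 and 3 lay above all controls, while RMA early 1 lay below them. Counted by member, 10, 24 and 25 of the 35 lay above all controls in RMA early 1, 2 and 3, and 13, 4 and 0 lay below (37.1%, 11.4% and 0%), where over all genes tested 23.6%, 22.4% and 20.3% lay above and 27.7%, 29.9% and 17.6% lay below. Without RMA early 1, 2 and 3 in turn the median was 0.88, 0.56 and 0.6, and without RMA early 1 and 2 together it was 0.86. In 4 members (11.4%, against 2.12% of all genes tested), Mcm6, Rfc3 and Cdc6 among them, all 3 libraries lay above the controls. Mcm6 stood at 292, 344, 286 and 243 CPM in controls 1 to 4 and at 437, 498 and 506 CPM in RMA early 1 to 3, without overlap and with RMA early 1 included in the difference (log2 fold change 0.72 ± 0.28 SE). Rfc3, a subunit of the clamp loader of DNA replication, stood at 22.2, 31.2, 34.1 and 17.8 CPM in controls 1 to 4 and at 65.9, 39.5 and 40.2 CPM in RMA early 1 to 3. Its RMA early 2 and 3 values lay close above control 3.

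Mitotic genes split the RMA early libraries further. Of 35 G2 and mitosis genes, 30 had a fold change above 0 (median 0.86), yet only Pbk (2.86% of the list) lay above the controls in all 3 libraries. The summed level was 857, 295, 414 and 206 CPM in controls 1 to 4 and 163, 1087 and 1141 CPM in RMA early 1 to 3. RMA early 2 and 3 were above the highest control and RMA early 1 was below the lowest, and the controls themselves spread widely. Counted by member, 2, 17 and 24 of the 35 lay above all controls in RMA early 1, 2 and 3, and 23, 7 and 0 lay below (65.7%, 20% and 0%, against the same 27.7%, 29.9% and 17.6%). Mki67, the proliferation marker, stood at 60.8, 13.7, 51.4 and 7.05 CPM in controls 1 to 4 and at 0.133, 87.5 and 86.9 CPM in RMA early 1 to 3. The median of the list was 1.4 without RMA early 1, 0.44 without RMA early 3, 1.52 without control 1, 0.57 without control 2 and 1.41 without RMA early 1 and 2. Counts of this kind cannot tell a larger share of dividing cells from more of these RNAs per cell, and for every cell type named here fewer cells and less RNA per cell cannot be told apart in bulk libraries. Whether the gaps of RMA early 1 in abundant genes have a part in its low mitotic values was not tested.

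**Figure D4:**
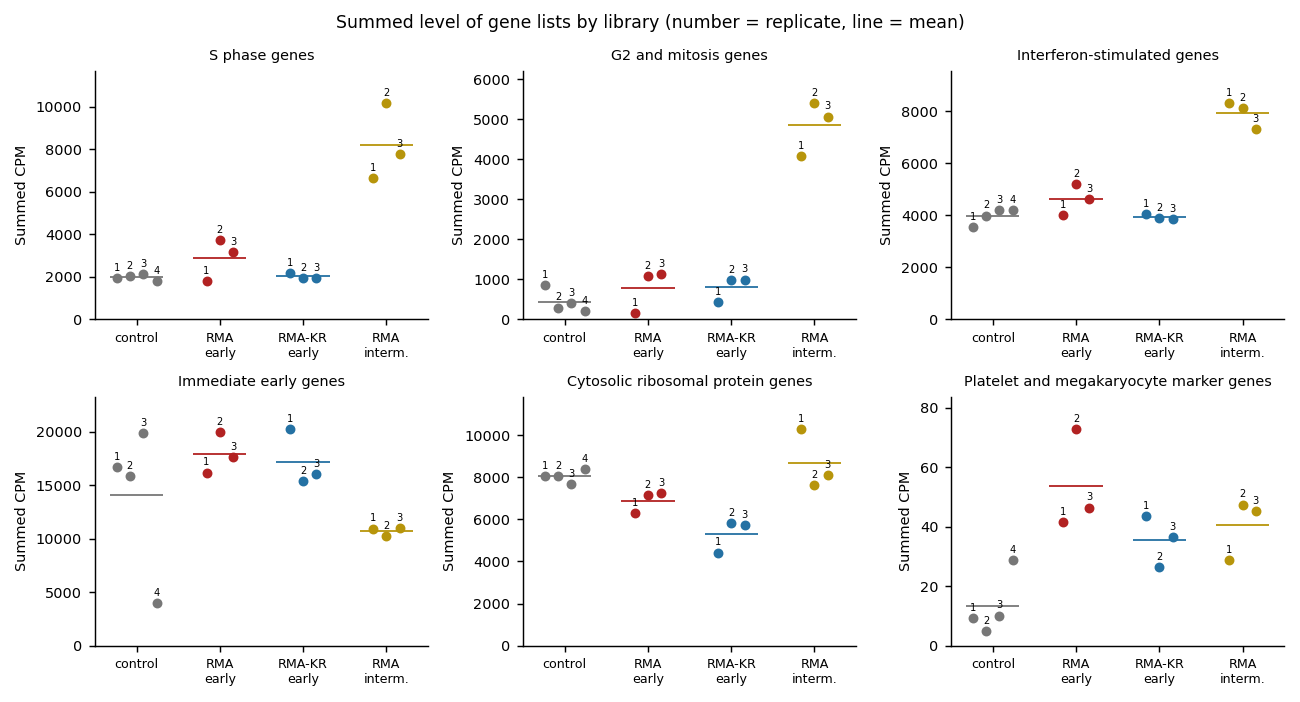
Summed normalized CPM of gene lists in each library, with a numbered point per library and a line at the group mean, for controls, RMA early, RMA-KR early and RMA intermediate. For S phase and for G2 and mitosis genes RMA early 2 and 3 lie above all controls and RMA early 1 lies below them (163 against at least 206 CPM for mitosis).

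Promoter sequences are shown for 3 of the cell cycle genes above, Cdk2, Mcm6 and Spag5, because each lay above the controls in all 3 RMA early libraries and held a motif searched for by letters alone. Rfc3 and Cdc6, also named above, met the same conditions and are not shown. Cdk2 and Spag5 are not members of the 2 cell cycle lists, and Mad2l1, also described above, held neither motif. Sequences are from RefSeq (GRCm38.p6), 250 bases before to 50 after the start of the gene, given 5′ to 3′ on the strand of the gene, and 69 of 82 named genes had an entry. Capitals mark matches on either strand: the E2F motif (TTTCCCGC, TTTGGCGC, TTTCGCGC or TTTGCCGC) in Cdk2 (chr10:128705002-128705301, minus strand) and Mcm6 (chr1:128359656-128359955, minus strand, where 2 of the 3 matches overlap), and the cell cycle homology region, CHR (TTTGAA or TTCGAA), in Spag5 (chr11:78301341-78301640, plus strand). Over all 32851 promoters of that length, 2.26% held the E2F motif, against 35.3% of 34 promoters of S phase genes, and 19.2% held the CHR letters, against 80.0% of 30 promoters of G2 and mitosis genes. A match describes the letters and does not show a bound site.
Cdk2: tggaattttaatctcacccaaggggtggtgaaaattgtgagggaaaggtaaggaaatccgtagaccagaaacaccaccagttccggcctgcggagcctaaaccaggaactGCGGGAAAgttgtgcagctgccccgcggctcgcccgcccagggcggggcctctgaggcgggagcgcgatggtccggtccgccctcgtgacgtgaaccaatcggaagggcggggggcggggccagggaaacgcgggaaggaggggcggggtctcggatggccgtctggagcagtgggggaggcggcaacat
Mcm6: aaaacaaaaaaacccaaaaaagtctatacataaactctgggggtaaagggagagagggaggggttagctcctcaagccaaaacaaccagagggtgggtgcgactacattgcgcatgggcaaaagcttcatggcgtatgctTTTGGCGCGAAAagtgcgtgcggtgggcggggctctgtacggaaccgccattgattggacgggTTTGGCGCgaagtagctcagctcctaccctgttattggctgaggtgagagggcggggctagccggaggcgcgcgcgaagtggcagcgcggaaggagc
Spag5: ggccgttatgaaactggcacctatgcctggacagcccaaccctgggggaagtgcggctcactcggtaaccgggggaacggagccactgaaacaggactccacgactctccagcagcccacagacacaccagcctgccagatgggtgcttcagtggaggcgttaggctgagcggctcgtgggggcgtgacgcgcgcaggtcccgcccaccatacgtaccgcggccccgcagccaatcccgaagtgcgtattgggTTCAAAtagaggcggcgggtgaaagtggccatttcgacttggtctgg

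Interferon-stimulated genes had a small upward shift in RMA early 2 and 3, while Isg15 and Rsad2 overlapped with the controls. Of 49 members tested, 35 had a fold change above 0 and the median was 0.22. Without RMA early 1, 2 and 3 in turn it was 0.41, 0.21 and 0.18. Their summed level was 3552, 3989, 4202 and 4212 CPM in controls 1 to 4 and 4021, 5201 and 4629 CPM in RMA early 1 to 3, so that RMA early 2 and 3 lay above all controls and RMA early 1 lay within them. By the median over members of log2 CPM relative to the control mean, RMA early 1 (-0.35) lay below each control (-0.21 to 0.13), and 21 of its 49 values (42.9%, against 27.7% over all genes tested) lay below all controls. In 4 members (8.16%, against 2.12% of all genes tested), Trim30a, Mx1 and Ifi209 among them, all 3 libraries lay above the controls, and in 1 (2.04%, against 4.94%), Dtx3l, all 3 lay below. Trim30a, an interferon-induced TRIM protein, stood at 164, 177, 224 and 162 CPM in controls 1 to 4 and at 262, 302 and 261 CPM in RMA early 1 to 3, without overlap (log2 fold change 0.6 ± 0.18 SE, edgeR adjusted p = 0.504, higher in 3 of 3). Trim30a has close paralogs, so that reads of 50 bases may not separate them and its level is uncertain. Mx1 stood at 22.5, 20.3, 25.1 and 14.5 CPM in controls 1 to 4. It stood at 53.6, 43.7 and 39.7 CPM in RMA early 1 to 3, with all 3 above control 3.

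Other interferon genes overlapped between the groups or lay lower. Isg15, a ubiquitin-like protein, stood at 2.03, 5.88, 5.16 and 8.12 CPM in controls 1 to 4 and at 4.8, 6.7 and 4.36 CPM in RMA early 1 to 3, all within the controls. Rsad2, an antiviral enzyme, stood at 0.739, 7.72, 0.948 and 3.3 CPM in controls 1 to 4 and at 0.4, 0 and 6.87 CPM in RMA early 1 to 3, and its groups overlapped. Irf7, a transcription factor of the interferon response, had a log2 fold change of 0.08 ± 0.19 SE, with RMA early 1 the lowest and RMA early 2 the highest of the 7 values (115 and 217 CPM). Dtx3l, a ubiquitin ligase, stood at 152, 166, 134 and 195 CPM in controls 1 to 4 and at 31, 116 and 112 CPM in RMA early 1 to 3. Ifnar2, a chain of the type I interferon receptor, stood at 145, 151, 128 and 140.3 CPM in controls 1 to 4 and at 102, 69.7 and 107 CPM in RMA early 1 to 3. Both lay below all controls in all 3 libraries, in contrast to Trim30a and Mx1.

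The promoter of Trim30a (chr7:104465144-104465443, minus strand, 1 of 2 entries for this gene) is shown because the gene lay above the controls in all 3 libraries, with the core of the interferon-stimulated response element (GAAANNGAA on either strand) in capitals. Of all promoters 8.56% held these letters, against 54.3% of 46 promoters of the interferon list.
Trim30a: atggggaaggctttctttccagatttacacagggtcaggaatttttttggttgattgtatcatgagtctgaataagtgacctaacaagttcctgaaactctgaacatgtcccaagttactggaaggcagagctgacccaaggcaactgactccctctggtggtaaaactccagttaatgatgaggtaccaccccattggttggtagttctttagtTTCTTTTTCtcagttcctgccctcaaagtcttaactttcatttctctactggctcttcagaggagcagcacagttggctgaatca

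Genes of MHC class I and peptide loading had a median of 0.05, with Tap1, which carries peptides into the endoplasmic reticulum, and Erap1, which trims them, above the controls in all 3 libraries (2 of 23 members, 8.7%). Tap1 stood at 296, 350.4, 385 and 358 CPM in controls 1 to 4 and at 459, 389 and 496 CPM in RMA early 1 to 3. The gap between RMA early 2 and control 3 was small. B2m, the light chain of MHC class I, overlapped between the groups, with a log2 fold change of 0.15 ± 0.19 SE. Guanylate-binding protein and interferon-gamma response genes had a median of 0.04 over 21 members, and 0 of them were without overlap. MHC class I genes are near-identical to one another, which makes the levels of single members uncertain.

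Genes of the killing machinery overlapped with the controls, with 1 exception. Cytotoxic granule genes had a median of -0.07 over 21 members, of which Gzmm alone (4.76%) lay below the controls in all 3 libraries. Prf1, which encodes perforin, stood at 3140.5, 4653, 5559 and 3297 CPM in controls 1 to 4 and at 4524, 4528 and 4056 CPM in RMA early 1 to 3, inside the range of the controls. Gzma, the most abundant of the list, had a log2 fold change of -0.07 ± 0.3 SE. Gzmb stood at 990.1, 1569, 2887 and 811 CPM in controls 1 to 4 and at 1904, 2386 and 2216 CPM in RMA early 1 to 3, above 3 of the controls and below control 3. NK cytokine and chemokine genes had a median of 0.2 (0 without RMA early 2 and -0.11 without control 4), with 0 of 13 members without overlap, and Ifng overlapped (0.34 ± 0.52).

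Among receptors, activating receptors and their adaptors had a median of -0.1 and inhibitory receptors and their signal regulators one of 0.05. Vav1, an exchange factor downstream of activating receptors, was the only 1 of 29 activating members (3.45%) below the controls in all 3 libraries, at 451, 475, 463 and 441 CPM in controls 1 to 4 and 392, 406 and 397 CPM in RMA early 1 to 3. The difference was small (log2 fold change -0.2 ± 0.15 SE), with tight values in both groups. Ly49 receptor genes, near-identical paralogs whose single levels are uncertain, had a median of -0.02 over 13 members. Of the checkpoint receptors, Tigit stood at 81.7, 66.7, 128 and 61.2 CPM in controls 1 to 4 and at 44.3, 128 and 128 CPM in RMA early 1 to 3, and Pdcd1 had too few counts to be tested. Lag3 stood at 11.5, 10.8, 19.6 and 22.1 CPM in controls 1 to 4 and at 0, 34 and 12.4 CPM in RMA early 1 to 3. Both overlapped with the controls, and RMA early 1 was the lowest library for both. Havcr2, which encodes TIM-3, was counted in RMA early 2 (23.7 CPM) and was at 0 in RMA early 1 and 3.

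Transcription factors of the NK lineage had a median of 0.06, with Bach2 and Nfil3 (9.09% of 22) above and Tbx21 (4.55%) below the controls in all 3 libraries. Tbx21, which encodes T-bet, a driver of NK cell maturation, stood at 673, 886, 893 and 1032 CPM in controls 1 to 4 and at 638, 663 and 664 CPM in RMA early 1 to 3. The RMA early values lay close together and just below control 1 (log2 fold change -0.41 ± 0.19 SE). Eomes, the related factor, overlapped (0.04 ± 0.19). Nfil3, which is needed for NK cell development, stood at 149, 163, 165 and 92 CPM in controls 1 to 4 and at 192, 227 and 179 CPM in RMA early 1 to 3. Surface markers of maturation had a median of -0.17, with 15 of 18 members below 0, and trafficking receptors had a median of -0.17, with 12 of 16 below 0. The maturation median was -0.06 without RMA early 1 and -0.27 without RMA early 2. The trafficking median was -0.06 without RMA early 2. Cd7, a surface receptor of lymphocytes, stood at 258, 353, 297 and 549.5 CPM in controls 1 to 4 and at 222, 210.2 and 203 CPM in RMA early 1 to 3, and Il7r, the interleukin-7 receptor chain, also lay below all controls. With Cd7 and Il7r, 2 of the 18 (11.1%, against 4.94% of all genes tested) were below without overlap, and Il7r is also a marker of other innate lymphoid cells, whose list is given below.

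Response genes of cytokines differed little in the middle of their lists. Interleukin-2 and interleukin-15 receptor and response genes had a median of 0.1, interleukin-12 and interleukin-18 genes one of 0.07 and TGF-beta pathway genes one of -0.08, with 0 members without overlap in each of the 3. BCL2 family genes, which set the threshold of apoptosis, had a median of -0.21, with 11 of 14 below 0, but the median was -0.09 without RMA early 2. Bmf and Bcl2l2 (14.3%) lay below all controls at low counts.

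Immediate early genes were dominated by a single control. Their summed level was 16724, 15873, 19845 and 3998 CPM in controls 1 to 4 and 16166, 19979 and 17599.5 CPM in RMA early 1 to 3, so that control 4 was low and the other 6 libraries were alike. Fos, for example, stood at 1650.3, 947, 924 and 83.9 CPM in controls 1 to 4. Egr2, a transcription factor induced by receptor signals, departed from its list, at 18.9, 13.4, 22.1 and 19.4 CPM in controls 1 to 4 and 0.4, 5.05 and 3.97 CPM in RMA early 1 to 3. It lay below all controls in all 3 libraries, control 4 included (log2 fold change -2.54 ± 0.74 SE, edgeR adjusted p = 0.504). Jund was the other member without overlap (2 of 30, 6.67%).

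Cytosolic ribosomal protein genes lay slightly lower. Of 84 members, 58 had a fold change below 0, with a median of -0.16, and 10 (11.9%, against 4.94% of all genes tested) lay below the controls in all 3 libraries. Their summed level was 8067, 8058, 7679 and 8370.1 CPM in controls 1 to 4 and 6283, 7143 and 7227 CPM in RMA early 1 to 3. Each RMA early sum lay below the lowest control, although the median differed from that of all genes (-0.06) by little and was -0.07 without RMA early 1. Many of these genes have near-identical pseudogenes, which makes single levels uncertain. Mitochondrial ribosomal protein genes had a median of -0.1, and 4 of 76 (5.26%) lay below all controls, close to the 4.94% of all genes tested. Translation factors had a median of -0.04, with Eif4a1, an RNA helicase of initiation, above and Eif4g2, a scaffold related to eIF4G, below the controls. Ribosome biogenesis genes also had a median of -0.04.

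Metabolic gene lists also had medians close to 0. Nuclear genes of oxidative phosphorylation had a median of -0.05 over 77 members, mitochondrially encoded genes one of -0.01, glycolysis genes one of 0, cholesterol and fatty acid synthesis genes one of -0.05 and ATF4 and amino acid response genes one of -0.04. Fasn, the fatty acid synthase, lay below the controls, at 109, 124, 94.3 and 230.3 CPM in controls 1 to 4 and 41.2, 63.4 and 78 CPM in RMA early 1 to 3. Slc2a1, the glucose transporter GLUT1, stood at 127, 199.7, 157 and 133 CPM in controls 1 to 4 and at 102, 121 and 114 CPM in RMA early 1 to 3. Ndufs7, a subunit of complex I, stood at 107, 168, 155 and 141 CPM in controls 1 to 4 and at 100.3, 86.2 and 104 CPM in RMA early 1 to 3. In Slc2a1 and Ndufs7 the group gap was narrow, and for all 3 genes the RMA early libraries were below each control. Other members lay above all controls, Atp5g3 among the nuclear oxidative phosphorylation genes (1.3% of the list, with 2.6% below) and Mthfd2 and Slc3a2 among the ATF4 genes (8.33%, with 8.33% below). Proteasome genes had a median of -0.03, chaperone genes one of 0.11, interferon receptor and signal transduction genes one of 0.06 and splicing and RNA-binding protein genes one of 0.12.

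**Figure D5:**
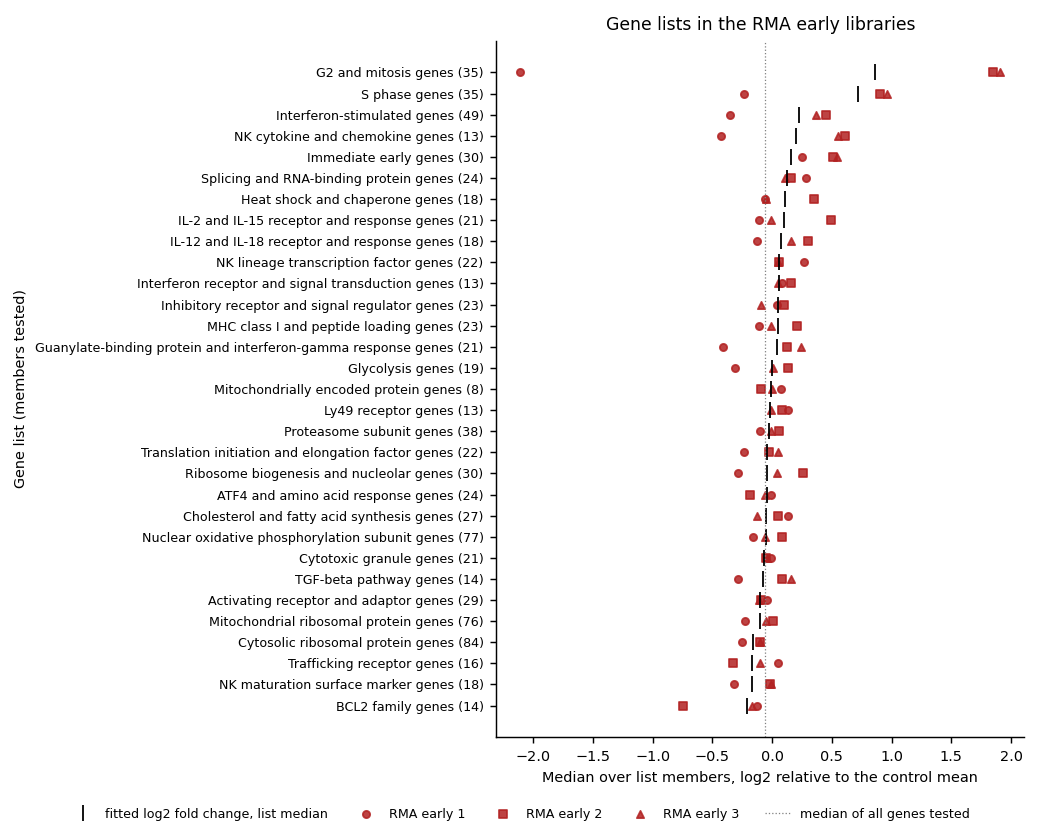
Median over the members of each pathway and NK list (vertical axis) of log2 CPM relative to the control mean (horizontal axis), with a symbol for each RMA early library, a black bar at the median fitted log2 fold change and a dotted line at the median of all genes tested. S phase genes and G2 and mitosis genes have the largest shifts among pathway and NK lists, in RMA early 2 and 3 (0.9 and 0.96, and 1.85 and 1.91), and RMA early 1 lies at -0.24 and -2.11.

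The sorted cells carried the markers of NK cells in both groups. The 14 identity genes summed to 28672, 36892, 40116 and 29088 CPM in controls 1 to 4 and to 33021, 32646 and 30428 CPM in RMA early 1 to 3, all within the controls. Ncr1, which encodes NKp46, stood at 2951, 3641, 3679 and 3086 CPM in controls 1 to 4 and at 3440.3, 3414 and 2799 CPM in RMA early 1 to 3. Klrb1c, which encodes NK1.1, also overlapped (log2 fold change -0.15 ± 0.17 SE).

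Markers of T cells, the lineage of the injected lymphoma, overlapped between the groups. Their sum was 564, 453, 455 and 509 CPM in controls 1 to 4 and 399, 562 and 487 CPM in RMA early 1 to 3, made up mainly of Trbc1, and Cd4, Cd6 and Cd8b1 had too few counts to be tested. Cd3e was at 0 in 3 controls and in RMA early 1 and 3, with 5 CPM in control 4 and 1.13 CPM in RMA early 2. Cd5 was at 0 in RMA early 1 and 3 and at 23.5 CPM in RMA early 2. B cell markers summed to 294, 337, 243 and 426 CPM in controls 1 to 4 and to 218, 284 and 264 CPM in RMA early 1 to 3, almost all of it Ighm. Of the 10 members tested, 7 had a fold change below 0, most of them under 10 CPM in each of the 7 libraries. The median of the 10 was -0.84, but -0.51 without RMA early 2 and -4.1 without RMA early 3. Ighd, the heavy chain of IgD, was the 1 member (10%) below all controls, with 46, 14, 35 and 72 counts in controls 1 to 4 and 0, 0 and 1 in RMA early 1 to 3 (edgeR adjusted p = 0.522), and DESeq2 with default settings called it lower. Neutrophil markers summed to at most 2.23 CPM in any of the 7 libraries. Macrophage and monocyte markers had a median of 0.63 and dendritic cell markers one of 0.59. Plasma cell, red blood cell and stromal markers had medians of -0.26, -0.43 and -0.44. Without RMA early 3 these 5 medians were 0.69, 0.25, -0.01, -4.22 and -0.63. Macrophage and monocyte markers summed to 1184, 1103, 956 and 1056 CPM in controls 1 to 4. In RMA early 1 to 3 they summed to 808, 805 and 1078 CPM, so that RMA early 1 and 2 lay below all controls. By library, the median over their members was -0.4, -0.46 and 1.32 in RMA early 1 to 3, and that of dendritic cell markers 0, -1.1 and 1.78. With at least 10 counts in each library the list medians were -0.24 and 0.86. At few counts, the macrophage marker Vcam1 (11.1%, against 2.12%) lay above and the stromal marker Cdh5 (14.3%, against 4.94%) below all controls. Markers of ILC1 and ILC2 summed to 200, 275, 214 and 366 CPM in controls 1 to 4 and to 168, 195 and 235 CPM in RMA early 1 to 3. The sums overlapped, but all 8 members tested had a fold change below 0, with a median of -0.78. That median was -0.35 without RMA early 2, -0.46 without RMA early 3 and -0.38 without control 4. Il7r and Il1rl1 (25%, against 4.94% of all genes tested) lay below all controls at low levels. For Il1rl1 the gap was negligible, as RMA early 2 and control 4 both rounded to 1.96 CPM.

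Platelet and megakaryocyte markers were higher at very low levels. The 8 members tested summed to 9.24, 4.82, 10.1 and 28.7 CPM in controls 1 to 4 and to 41.5, 72.7 and 46.4 CPM in RMA early 1 to 3. All 3 RMA early sums lay above the controls, with Itgb3 the most abundant member over the libraries. Ppbp, a platelet chemokine, stood at 0.185, 0, 0 and 0.714 CPM in controls 1 to 4 and at 7.87, 16.9 and 7.27 CPM in RMA early 1 to 3. It was the 1 member of the 8 (12.5%) without overlap. Pf4, another platelet chemokine, was at 0, 6.08 and 2.12 CPM in RMA early 1 to 3. RMA-KR early libraries had sums of 43.6, 26.3 and 36.6 CPM, of which the last 2 lay below each RMA early sum and 26.3 CPM lay below control 4. The part of platelet RNA in other differences was not tested.

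Set against the other tumor at the same day, the RMA early cells differed in 52 of 17097 genes (0.304%), 30 higher and 22 lower. The count rested on single libraries, with 20, 12 and 192 genes called without RMA early 1, 2 and 3. This comparison uses the same 3 RMA early libraries, and the genes named above were picked on those values, so that it gives no independent support. Of the 10 lower genes, 6 were called lower than in RMA-KR early by edgeR as reported: Zkscan5, Ndufaf7, Amigo1, Prkci, Prkd3 and Rab35. With the replicate number as a block Amigo1, Prkci and Rab35 were not called. Msto1, Cd151 and Coil also had negative log2 fold changes (-1.16, -1.05 and -2.77) but were not called by edgeR as reported. DESeq2 with default settings called Coil. Ndufaf7 stood at 68.2, 62.7 and 71.1 CPM in RMA-KR early 1 to 3, above each control, and so its low values were seen with RMA and not with RMA-KR (log2 fold change -2.48 ± 0.36 SE, edgeR adjusted p = 0.00796, lower in 3 of 3). It was called without each RMA early library in turn, whereas of the other 5 only Amigo1 and Prkd3 were called without RMA early 1 and 0 were called without RMA early 2. Prkci was also not called without RMA early 3 or without control 1, 3 or 4. Zkscan5 lay below all controls in RMA-KR early 1 (3.15 CPM) and RMA-KR early 2 as well, and stood at 22.7 CPM in RMA-KR early 3. Prkd3 stood at 168, 206 and 147 CPM in RMA-KR early 1 to 3, within or above the range of the controls (-1.57 ± 0.28, adjusted p = 0.0187). Sin3b, in contrast, stood at 78.3, 85.2 and 116 CPM in RMA-KR early 1 to 3, as low as with RMA, with a difference of 0 ± 0.21.

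Of the 10 higher genes, 0 differed from RMA-KR early by the edgeR test as reported, while DESeq2 called Golim4 and Serpine2 with default settings and Golim4 with a prior. Cdk2 stood at 38.6, 20.1 and 38.4 CPM in RMA-KR early 1 to 3, below each RMA early value (log2 fold change 1.02 ± 0.33 SE, edgeR adjusted p = 0.229). Trim30a stood at 177, 232 and 155 CPM in RMA-KR early 1 to 3, below each RMA early value (0.55 ± 0.19, adjusted p = 0.277). S phase genes summed to 2185, 1956 and 1948 CPM in RMA-KR early 1 to 3 and mitotic genes to 425, 973 and 997 CPM. RMA early 2 and 3 lay above RMA-KR early for both lists, and RMA early 1 lay below for both. Cytosolic ribosomal protein genes, lower than the controls in RMA early, were lower still in RMA-KR early, at 4414, 5830.2 and 5716 CPM.

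By day 4 the RMA cells differed from day 2 in 295 of 17097 genes (1.73%), 188 higher and 107 lower at day 4. Without RMA early 1 the count was 49 and without RMA early 3 it was 568. The same 3 RMA early libraries enter here as well. Mad2l1 was the 1 gene of the 10 higher that was called, at 132, 139 and 129 CPM in RMA intermediate 1 to 3, above each day 2 value (log2 fold change 1.35 ± 0.36 SE, edgeR adjusted p = 0.0467, higher in 3 of 3). It was not called without RMA early 1, without RMA early 2 or without any single control. With DESeq2 size factors in edgeR and with the replicate number as a block it was also not called. Pbk stood at 52.4, 72 and 72 CPM at day 4 and Cdk2 at 92.6, 129 and 111 CPM, all above the day 2 values. Neither was called by edgeR as reported (2.19 ± 0.82 and 0.75 ± 0.33), while DESeq2 with a prior and edgeR without a filter called Pbk. Of the 10, 6 had lower values at day 4 than at day 2, with log2 fold changes of -1.26 for Golim4 (adjusted p = 0.0503), -1.01 for Cul3, -0.91 for Tmem50b, -0.52 for Fbxw17, -0.5 for Serpine2 and -0.49 for Gsdme. None of the 6 was called by edgeR as reported, and DESeq2 with default settings called Golim4 and Cul3. S phase genes summed to 6631, 10180.3 and 7790 CPM at day 4, mitotic genes to 4079.6, 5408 and 5071 CPM and interferon-stimulated genes to 8310.5, 8131 and 7322 CPM. Each of these sums exceeded the highest day 2 sum.

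Of the 10 lower genes, 7 were called higher at day 4 than at day 2 by edgeR as reported, namely Zkscan5, Ndufaf7, Amigo1, Sin3b, Prkci, Msto1 and Rab35. Prkd3, Cd151 and Coil also had positive log2 fold changes (0.71, 1.23 and 2.49) but were not called by edgeR as reported. DESeq2 with default settings called Coil. Ndufaf7 stood at 63.3, 48.4 and 38.1 CPM in RMA intermediate 1 to 3, around the level of the controls (log2 fold change 2.05 ± 0.36 SE, edgeR adjusted p = 0.00427, higher in 3 of 3), and it was called without each RMA early library in turn. Sin3b stood at 202, 172 and 205 CPM, also at the level of the controls (1.05 ± 0.21, adjusted p = 0.01). Its call was lost with DESeq2 size factors in edgeR and with DESeq2, with or without a prior. Without RMA early 1 the called genes of the 7 were Ndufaf7 and Amigo1, and without RMA early 2 they were Zkscan5, Ndufaf7, Amigo1 and Sin3b. Trim30a stood at 580.5, 555 and 484 CPM at day 4, above each day 2 value, and its adjusted p was 0.00974, but its fold change was under 2 (0.97 ± 0.19). The low values of Ndufaf7 and Sin3b were thus measured at day 2 and not at day 4 in mice with the same tumor.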

How the data were processed

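The authors deposited a table of raw read counts per gene for 24 libraries, made per the labels and methods with an mRNA-seq library kit and single 50-base reads, cutadapt 1.10, Bowtie2 2.2.8, STAR 2.5.3a on mm10 and HTSeq 0.6.1p1 in union mode on Ensembl 96. The strand of counting is not stated, so that genes overlapping on opposite strands may share reads. The other 48 per-library columns were not used, and neither were the authors' comparison columns, which hold log2 fold changes, p-values and adjusted p-values of their group comparisons (DESeq2 1.16.1). Library totals of the 7 libraries ran from 5138651 to 10562991 counts.

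Genes were tested with edgeR 4.0.16 (limma 3.58.1, R 4.3.3) in 1 fit of all 24 libraries with 7 group means. Low-count genes were removed with filterByExpr, leaving 17097 of 45237 (37.8%), counts were scaled by TMM, and robust quasi-likelihood tests were adjusted by Benjamini-Hochberg over all genes tested. Calls needed a fold change above 2 and an adjusted p under 0.05. The common biological coefficient of variation was 0.852. Errors are SE of the log2 fold change. Log2 CPM used a prior count of 2.

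Named genes were the 10 genes higher and the 10 lower with the lowest unadjusted p among those with a fold change above 2, no overlap, a mean of at least 5 CPM and no 0 in the higher group, filling the places that called genes would have taken. To these were added up to 3 members per list without overlap and genes named whatever their values, and a few of the genes that the rule gives are not described. Members and the 42 gene lists were chosen with earlier results of these data known. Genes or libraries mentioned only as examples of quality (Gatd1) and further list members were chosen after their values were seen.

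Alternatives were DESeq2 size factors, DESeq2 1.42.0 with and without a prior on the fold change, no filter, at least 10 counts in each of the 7 libraries, replicate number as a block, a fit of the 7 libraries only, and leaving out each of the 7 libraries in turn or RMA early 1 and 2 together. The code was tested on simulated data.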

Additional observations from a re-analysis of the deposited data

Results flagged for a closer look

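Within the 4 controls, 128 values (library measures, list sums and named genes) were checked for a library far from the other 3, and 7 stood apart, where chance alone gives about 1 in 20. Control 4 had 15.5% of its counts in the 50 most abundant genes, against 17.1 to 17.3% in the other controls. Sin3b was at 150.4 CPM in control 3 against 199.8 to 205 in the others. Prkci was at 3.09 CPM in control 2 against 12.2 to 13.4. Erap1 was at 70.6 CPM in control 1 against 177 to 196. Sesn2 was at 40.6 CPM in control 2 against 23.8 to 25.8. Havcr2 was at 0.0965 CPM in control 2 and Cd3e at 5 CPM in control 4, each against 0 in the other 3. For Sin3b and Prkci the library that stood apart was the control closest to RMA early, and still above it. What set these libraries apart was not tested.

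For 6 genes the day 2 value differed between the tumors, by the edgeR test of RMA early minus RMA-KR early. The log2 difference was -7.41 for Zkscan5, -2.48 for Ndufaf7, -6.16 for Amigo1, -4.82 for Prkci, -1.57 for Prkd3 and -2.89 for Rab35. Each was lower in 3 of 3 RMA early libraries than in every RMA-KR early library. Low values were not confined to RMA for each gene. Zkscan5 stood at 3.15 CPM in RMA-KR early 1 and lower still in RMA-KR early 2, both below all controls (12.1 to 18.1 CPM). Its RMA-KR early 3 value was 22.7 CPM. In RMA-KR early 3, Amigo1 (3.78 CPM) and Rab35 (7.73 CPM) lay below their lowest controls (7.06 and 8.01 CPM). Ndufaf7, Prkci and Prkd3 lay within or above the controls in every RMA-KR early library. With the replicate number as a block Amigo1, Prkci and Rab35 were not called. All of these genes were picked on the same RMA early values.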

How the results depend on the processing

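Named genes held their direction in most alternatives: of their values under an alternative, 1104 kept direction and side of the threshold, 50 gained a call and 48 changed sign. Of the list medians 556 moved by less than the spread between the RMA early libraries and 72 by more, which counts size and not direction: that spread is wide for some lists (2.31 for mitosis genes), and medians near 0 changed sign, such as NK cytokine and chemokine genes (0.2 as reported and -0.11 without control 4). Against the controls, 0 genes were called as reported, with DESeq2 size factors, with at least 10 counts in each library, with the 7 libraries alone and with RMA early 1 and 2 left out together. DESeq2 with default settings called 10 higher and 52 lower, DESeq2 with a prior 6 and 13, and edgeR without a filter 36 and 52. Leaving out each library in turn gave 0 to 7 higher and 0 to 79 lower, the highest without RMA early 3. A lone RMA early library is assumed to vary like the other groups.

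The replicate number as a replicate block gave 0 higher and 0 lower against the controls, 17 genes against RMA-KR early (52 without a block) and 235 for day 4 against day 2 (295 without). The labels name no pairs. Across genes, deviations of same-numbered RMA early and control libraries correlated at -0.02, 0.0424 and -0.00614, and not every RMA early library correlated best with its own number.

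Against RMA-KR early, DESeq2 called 295 genes by default and 181 with a prior, edgeR without a filter 188, and leaving out an RMA early library gave 12 to 192. For day 4 against day 2 these counts were 914, 643, 617 and 49 to 568. Genes without overlap numbered 520 to 1271 higher and 1060 to 2268 lower with a library left out, and 5246 and 3035 with RMA early 1 and 2 left out, where fewer values have to lie on one side. With DESeq2 size factors 459 lay higher and 704 lower, without a filter 397 and 1027, and with at least 10 counts in each library 319 and 362, among fewer genes tested (8536), since that filter removes genes for being low in a group.

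Sign changes fell on genes with a small difference or with counts in few of the 7 libraries. With DESeq2 size factors and with DESeq2 by default Ncr1 was at 0.02, Gzma at 0.01, Isg15 at 0.07 and Lag3 at 0.02, and with a prior at 0.02, 0.01, 0.07 and 0.1. With the block Prf1 was at -0.05, Isg15 at 0.37, Lag3 at 0.18 and Cd3e at 2.16. Isg15 was at 0.04 with at least 10 counts in each library and at 0.02 with the 7 libraries alone. With RMA early 1 and 2 left out Prf1 was at -0.02, Rsad2 at 1.11, Havcr2 at -1.7 and Cd5 at -4.6. Leaving out a library in turn gave ranges of -0.09 to 0.07 for Ncr1, -0.07 to 0.21 for Eomes, -0.02 to 0.26 for Prf1, -0.21 to 0.12 for Gzma, -0.25 to 0.29 for Isg15, -3.98 to 0.53 for Rsad2, -0.13 to 0.31 for Irf7, -1.34 to 0.56 for Lag3, -1.69 to 9.38 for Havcr2, -0.05 to 0.34 for B2m, -6.73 to 5.04 for Cd3e and -4.6 to 5.35 for Cd5. Except where the alternative itself tests fewer genes or libraries, the cause was not tested. Depth limited genes near 3 counts (0.268 to 0.554 CPM), where fold changes depend on the prior count.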

Other observations

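Some genes were counted in 1 group and were at 0 in the other. They were picked after their values were seen, and 0 of them passed the edgeR test against the controls as reported. DESeq2 with default settings called Dok4, Bbs10, Zfp518b, Gm38345, Gm45220 and 4930509H03Rik, and edgeR without a filter on low counts called Dok4, Bbs10, Zfp518b, Gm38345, Gm45220 and Gm37412. In all 3 RMA early libraries 10 genes were at 0 that stood above 1 CPM in each control: Dok4, Bbs10, Zfp518b, Nexmif, Triqk, Gm38345, Gm45220, Gm45629, Gm16124 and 4930509H03Rik. Of the 17097 genes tested, 13339, 12177 and 15127 had a count in RMA early 1 to 3. In controls 1 to 4 these were 15572, 14211, 14357 and 16160, so that values of 0 were more frequent in RMA early 1 and 2. Triqk was also at 0 in all RMA-KR early libraries and at day 4. Dok4, an adaptor of tyrosine kinases, stood at 6.1, 12.1, 12.7 and 7.14 CPM in controls 1 to 4, with a mean at least 25.8-fold above the mean floor of 3 counts per library in RMA early. It was counted in RMA-KR early 1 to 3 (8.07, 3.75 and 15.5 CPM) and in RMA intermediate 1 to 3 (8.56, 1.67 and 1.6 CPM). Bbs10, a chaperone-like protein of the cilium, stood at 3.7, 7.52, 10.4 and 9.73 CPM in controls 1 to 4, with a mean at least 21.3-fold above that floor, and was at 0 in 2 of the RMA-KR early libraries.

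In the other direction, Sypl2 and Gm37412 were at 0 in all 4 controls. Sypl2, a synaptophysin-like membrane protein, stood at 6.67, 2.47 and 1.59 CPM in RMA early 1 to 3, with a mean at least 10-fold above the mean floor of the controls, and was at 0 at day 4. Gm37412 stood at 22.4, 9.69 and 8.33 CPM in RMA early 1 to 3, with a mean at least 37.8-fold above that floor, and was at 0 in RMA-KR early and at day 4. For the unnamed Gm genes, which may overlap other genes, the strand of counting is not stated.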
